A study of Mus musculus with 47 samples.

Results

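Mature medullary thymic epithelial cells (mTEChi) of newborn mice that lack EED in the thymic epithelium were compared with mTEChi of control mice across all genes. The samples were those whose labels name neonatal mTEChi with the genotype EEDcKO or Ctrl, 8 of the 47 samples of the series, 3 EEDcKO and 5 Ctrl. EEDcKO mice carry floxed Eed alleles and Foxn1-Cre, which is active in all thymic epithelium and not in medullary cells alone, on the C57BL/6 background, and the Ctrl mice are given by that label only. Ctrl replicates 1 and 2 were from 6-day males, Ctrl replicate 3 from females and Ctrl replicate 4 from males of 2 to 3 days, and Ctrl replicate 5 from both sexes pooled at 1 day. EEDcKO replicate 1 was from females of 6 days, replicate 2 from both sexes pooled at 2 to 3 days, and replicate 3 from both sexes pooled at 1 day. Cells had been sorted as EpCAM-positive, CD45-negative, Ly51-negative and MHC class II-high, and their RNA was sequenced over the full length of transcripts. Besides the pooling, the labels do not say which libraries came from separate animals, so the p-values measure the spread between libraries. That spread was estimated over all neonatal libraries of the series together. Among the 8, the counts of Ctrl replicates 1 and 2 were more alike than those of any other pair within a genotype. The 5 Ctrl libraries may therefore hold fewer than 5 independent samples. A further pair of EED comparisons of newborn mice was set beside this one. In mTEClo, the MHC class II-low medullary cells, 4 EEDcKO libraries of 1 to 6 days were compared with 3 Ctrl libraries of 1 to 3 days, and in mTEChi without Aire, 3 AireEEDdKO libraries, which lack both proteins, with 3 AireKO libraries, at 4 and 6 days in both.

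EED belongs to the core of PRC2, the Polycomb enzyme complex that methylates lysine 27 of histone H3. It binds the methylated product and stimulates the catalytic subunits EZH2 and EZH1, and genes that carry the mark, many of them regulators of development, are kept at a low level in cell types that do not use them. Mature medullary cells are known for transcribing a great many genes of other tissues under the regulator AIRE, and some of them take on programmes of gut, skin, muscle, tuft or neuroendocrine cells and are called mimetic cells, so that developing T cells meet these self-antigens in the thymus.

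The start regions of 4 genes with large differences are printed, chosen after the values were seen: 2 transcription factors of mesenchyme that rose, Prrx1 and Twist1, and 2 genes of the intestine that fell, Adgrg7 (an adhesion receptor) and Sis (the brush border enzyme sucrase-isomaltase). Each runs from 250 bases before to 50 bases after the RefSeq start, 5′ to 3′ on the strand of the gene in the GRCm38.p6 assembly, with every CG pair in capitals, and a CG pair reads the same on both strands. The windows lie at chr1:163313601-163313900 (minus strand, Prrx1), chr12:33957421-33957720 (plus, Twist1), chr16:56795809-56796108 (minus, Adgrg7) and chr3:72967814-72968113 (minus, Sis).
Prrx1: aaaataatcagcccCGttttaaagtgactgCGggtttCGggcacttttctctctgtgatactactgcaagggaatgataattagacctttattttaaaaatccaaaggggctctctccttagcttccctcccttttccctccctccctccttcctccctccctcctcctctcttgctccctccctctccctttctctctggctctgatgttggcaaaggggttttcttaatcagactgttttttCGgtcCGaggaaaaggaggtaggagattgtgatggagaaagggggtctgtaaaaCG
Twist1: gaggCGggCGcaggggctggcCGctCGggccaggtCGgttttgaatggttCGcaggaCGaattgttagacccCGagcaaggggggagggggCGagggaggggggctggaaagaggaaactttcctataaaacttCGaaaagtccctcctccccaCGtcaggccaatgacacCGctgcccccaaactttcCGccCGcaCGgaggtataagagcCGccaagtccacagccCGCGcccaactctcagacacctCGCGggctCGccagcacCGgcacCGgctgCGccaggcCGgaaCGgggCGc
Adgrg7: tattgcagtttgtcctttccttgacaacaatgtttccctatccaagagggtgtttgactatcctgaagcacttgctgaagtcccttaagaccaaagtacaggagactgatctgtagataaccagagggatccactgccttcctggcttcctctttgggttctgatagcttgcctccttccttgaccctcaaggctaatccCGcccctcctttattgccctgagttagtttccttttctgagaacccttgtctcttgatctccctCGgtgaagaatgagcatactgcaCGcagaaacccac
Sis: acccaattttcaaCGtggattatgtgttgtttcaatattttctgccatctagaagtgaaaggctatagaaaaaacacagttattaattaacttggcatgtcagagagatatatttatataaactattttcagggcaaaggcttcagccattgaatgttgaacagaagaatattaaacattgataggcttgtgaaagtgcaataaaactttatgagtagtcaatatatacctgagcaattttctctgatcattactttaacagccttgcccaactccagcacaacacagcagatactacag
The windows of the rising genes hold 6 (Prrx1) and 27 (Twist1) CG pairs, and those of the falling genes 3 (Adgrg7) and 1 (Sis), so Twist1 stands apart while Prrx1 is close to the falling genes. Over 13512 such windows of genes the median was 18 CG pairs, and 98.7% held at least 1. Among the 15 genes with the largest rises that had reads enough in both groups, 10 had a window at their annotated start and held 6 to 34 CG pairs, and among the 15 with the largest falls chosen in the same way, 12 had one and held 0 to 7. These counts are a description, because windows could be matched to only 66.9% of the tested genes and a comparison over all called genes was therefore void.

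The libraries held 1578579 to 4346874 counted reads and 27203 to 34241 genes with at least 1 read. At this depth 3 reads correspond to 0.651 to 1.84 CPM (reads of a gene scaled to the size of its library). Levels below this floor were not told apart from 0. It was 1.67 to 1.84 CPM in the shallower libraries, those of 6 days, and 0.651 to 0.936 CPM in the others. The libraries of 1 day and of 2 to 3 days were the deeper ones in both genotypes. Levels below are compared between libraries and not between genes. A gene is said to have risen or fallen where edgeR's quasi-likelihood test gave a Benjamini-Hochberg adjusted p below 0.05 over all tested genes together with a change of at least 2-fold. The labelled cell type was checked against defining markers. The summed level of 8 epithelial markers was 1850 to 2230 CPM in Ctrl and 1740 to 2260 CPM in EEDcKO, that of 6 medullary markers including Aire was 2120 to 3430 against 2230 to 3760 CPM, and none of these 14 genes rose or fell. Under the 2-fold limit, Krt5 was higher (224 to 268 against 335 to 495 CPM, adjusted p = 0.0010). Esrp1 was lower (319 to 365 against 214 to 251 CPM, adjusted p = 8.5e-05), and Grhl2 slightly higher (log2 fold change 0.38, adjusted p = 0.042). Markers of thymocytes (138 to 163 against 124 to 186 CPM), endothelium (88.8 to 120 against 78.6 to 94.8 CPM) and B cells (67.0 to 88.4 against 87.8 to 107 CPM) were low in both groups. Within these lists Rag1 (22.3 to 32.1 against 5.61 to 8.60 CPM), Pecam1 (15.5 to 27.2 against 6.86 to 12.9 CPM) and Ms4a1 (3.67 to 9.28 against 1.25 to 1.95 CPM) were called lower and Bcl11b (29.3 to 41.8 against 69.4 to 111 CPM) higher. Markers of cortical epithelium were uneven within Ctrl. The 6 of them summed to 334, 330, 577, 857 and 587 CPM in Ctrl and to 344, 412 and 389 CPM in EEDcKO, and none was called. Among them Prss16 was at 39.0 to 228 CPM in Ctrl and 28.3 to 82.0 CPM in EEDcKO.

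Eed itself, the targeted gene, was lower but not absent in the EEDcKO libraries. It stood at 38.5, 35.5, 26.7, 23.3 and 20.2 CPM in the Ctrl libraries and at 19.7, 10.6 and 13.7 CPM in the EEDcKO libraries. Every EEDcKO value lay below every Ctrl value, the nearest 2 by a narrow margin. The log2 fold change was -1.001 ± 0.22 (SE, n = 5 and 3, adjusted p = 0.0014), at the edge of the 2-fold limit, so that the call was lost without Ctrl replicate 1 (-0.87), Ctrl replicate 2 (-0.92), EEDcKO replicate 2 (-0.80) or EEDcKO replicate 3 (-0.97). With the GC offset fit described below it was -0.72, and not called. Counts were taken over the whole gene, so they include reads from any exon that the deletion leaves in place. In mTEClo the log2 fold change of Eed was -0.67 (not called), and in AireEEDdKO against AireKO it was -1.54 (called).

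More genes were higher than lower in EEDcKO mTEChi. Of 20196 genes tested, 2802 (13.9%) were called, 1712 (8.48%) higher and 1090 (5.4%) lower in EEDcKO. Genes called higher had median levels of 8.39 CPM in Ctrl and 23 CPM in EEDcKO, and genes called lower 10 and 3.11 CPM. The 2 groups of libraries did not overlap for 1456 (85.0%) of the genes called higher and 909 (83.4%) of those called lower, against 6306 (31.2%) of all tested genes. Within the 6-day, 2 to 3-day and 1-day libraries taken separately, the difference had the same sign at all 3 ages for 96.0% of the genes called higher and 97.7% of those called lower, against 58.1% of all tested genes. Protein-coding genes made up 91.6% of the genes called higher and 68.1% of those called lower (79.7% of all), and long intergenic RNAs 1.17% and 9.08% (3.23% of all).

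The base composition of transcripts moved with the genotype, and its part in the differences was not tested. In the decile of genes with the lowest GC content (27.3 to 41.7%), the median log2 fold change was -0.35, and 2.03% of genes were called higher and 11.4% lower. In the decile with the highest GC content (57.8 to 75.6%), the median was 0.82, and 37.2% were called higher and 0.644% lower. The shift followed the genotype in every library. The median deviation of the highest decile minus that of the lowest was taken on the log2 scale. It was -0.774 to -0.263 in the 5 Ctrl libraries and 0.152 to 0.864 in the 3 EEDcKO libraries, and these ranges did not overlap. A trend of the libraries and an effect of EED loss cannot be told apart here. In the fit that removes this trend from each library, called the GC offset fit below and added after the data were seen, 1761 genes were called, 921 higher (52.3% of the calls, against 61.1% without the offset) and 840 lower. Of the genes called without it, 748 (43.7%) of the higher and 690 (63.3%) of the lower were called the same way with it.

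**Figure D1:**
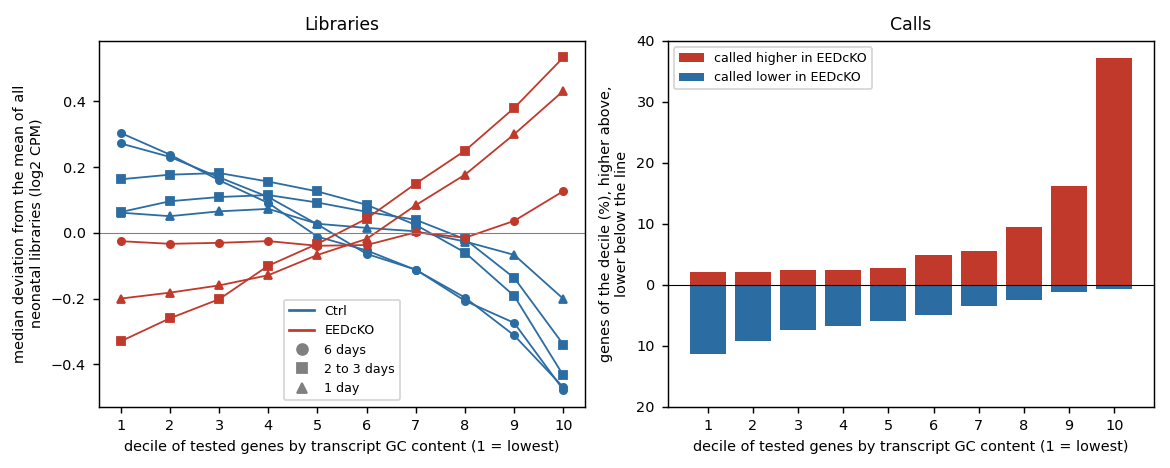
Left, the median deviation of each neonatal mTEChi library from the mean of all neonatal libraries (log2 CPM, 1 line per library, blue Ctrl, red EEDcKO) over deciles of the tested genes by transcript GC content, and right, the percentage of each decile called higher (red, above the line) or lower (blue, below it). The 3 EEDcKO lines end above their start and the 5 Ctrl lines below theirs, and calls of higher genes go from 2.03% in the first decile to 37.2% in the last.

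The 15 largest rises, taken among genes with more than 3 reads on average in the lower group and no overlap between groups, were all called with the GC offset too. Zfhx4, a zinc finger homeobox factor, was at 6.70, 2.29, 3.82, 4.71 and 6.04 CPM in Ctrl and 67.0, 88.3 and 96.4 CPM in EEDcKO. All 3 EEDcKO libraries were high, far above the highest Ctrl library, and the log2 fold change was 4.13 ± 0.18 (adjusted p = 2.7e-13). Meg3, a maternally expressed long non-coding RNA, stood at 13.4, 12.03, 15.3, 7.33 and 17.9 CPM in Ctrl and 154, 110 and 124 CPM in EEDcKO, again without overlap (log2 fold change 3.27 ± 0.29, adjusted p = 8.3e-08). Soga3 was at 0.558 to 1.91 CPM in Ctrl and 11.7, 18.4 and 22.5 CPM in EEDcKO (3.80 ± 0.39), with the Ctrl libraries around the 3-read floor.

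Prrx1, whose window is printed above, was at 3.91, 2.86, 2.46, 3.67 and 1.86 CPM in Ctrl and 42.4, 24.3 and 19.96 CPM in EEDcKO, with all EEDcKO libraries above all Ctrl libraries (log2 fold change 3.27 ± 0.42, adjusted p = 7.7e-06). Twist1, a basic helix-loop-helix factor of mesenchyme, was at 2.23, 0.573, 1.09, 1.83 and 0.929 CPM in Ctrl and 7.37, 16.9 and 12.5 CPM in EEDcKO (3.24 ± 0.39, adjusted p = 3.9e-06). These groups did not overlap either. Markers of mesenchyme were summed at 750 to 918 CPM in Ctrl and 1010 to 1500 CPM in EEDcKO. Of 9 tested markers Pdgfra, Col1a1 and Col1a2 rose. Pdgfra overlapped between groups (2.79 to 10.9 against 38.7, 7.16 and 10.9 CPM, adjusted p = 0.0495). It was high in EEDcKO replicate 1 only and not called with the GC offset, whereas Col1a1 and Col1a2 were. The other 6 were not called, among them Dcn (51.3 to 77.1 against 64.5 to 104 CPM), Pdgfrb (80.9 to 96.6 against 68.0 to 91.1 CPM), Lum (9.16 to 20.6 against 8.89 to 12.5 CPM) and Col3a1 (6.27 to 18.9 against 2.81 to 11.7 CPM). In bulk RNA a change in the number of cells of a type and a change in the RNA per cell cannot be told apart.

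Further genes among the 15 were the homeobox factor Isl2 (0.546 to 2.56 CPM against 13.5, 9.33 and 20.3 CPM), the amino acid transporter Slc7a10 (1.72 to 3.48 against 25.8, 24.7 and 20.9 CPM), Arhgef19, a guanine nucleotide exchange factor (2.29 to 4.65 against 27.6, 45.8 and 25.9 CPM), and Igsf21, an immunoglobulin superfamily protein (8.12 to 11.7 against 58.4, 62.7 and 113 CPM). In each the lowest EEDcKO library was above the highest Ctrl library. Scarf2, a scavenger receptor family member, was at 1.05 to 3.44 CPM in Ctrl and 11.1, 28.6 and 17.8 CPM in EEDcKO. For 5 genes of the 15 the size rested on EEDcKO replicate 3, the 1-day library. Avp, which encodes vasopressin, was at 4.92, 6.51 and 33.1 CPM in EEDcKO, and its log2 fold change of 3.76 was 2.40 without that library and 4.66 without Ctrl replicate 5. The dopamine receptor gene Drd4 (5.53, 6.51 and 57.4 CPM) went from 3.58 to 1.65, the homeobox gene En2 (15.4, 4.99 and 31.2 CPM) from 3.51 to 2.66, and Lrrn2 (5.53, 9.76 and 24.9 CPM) from 3.37 to 2.60. Pou4f3, a POU homeobox factor (10.4, 8.68 and 28.4 CPM), went from 2.97 to 2.23 and was no longer called, nor was it with a sex term (1.93).

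**Figure D2:**
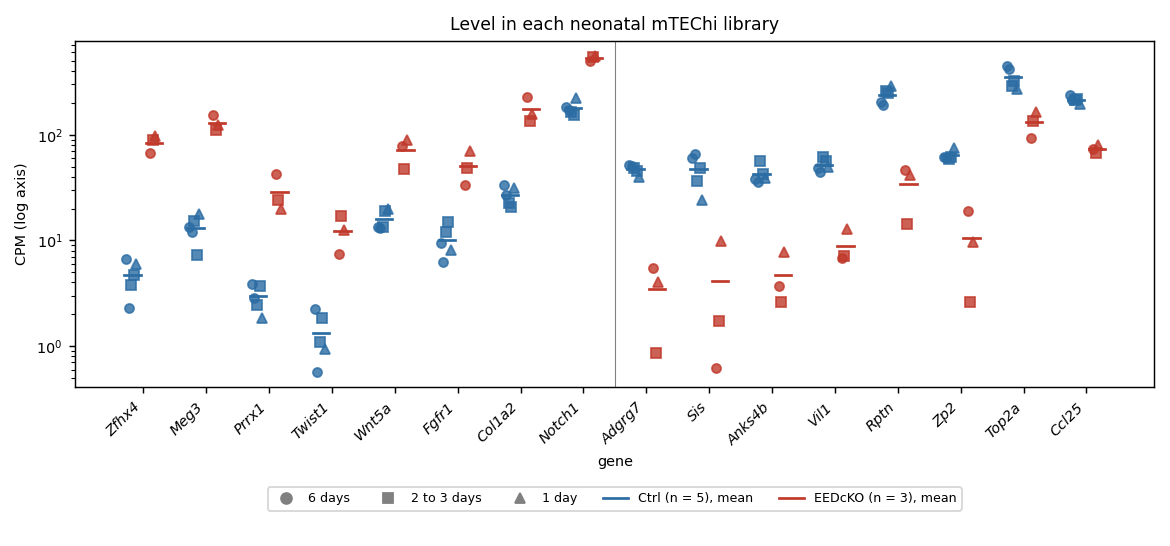
CPM on a log axis in each of the 5 Ctrl (blue) and 3 EEDcKO (red) libraries for 8 genes that rose and 8 that fell, with circles for 6 days, squares for 2 to 3 days, triangles for 1 day and a line at each group mean. The groups do not overlap in any of the 16 genes, with Zfhx4 at 2.29 to 6.70 CPM in Ctrl and 67.0 to 96.4 CPM in EEDcKO and Adgrg7 at 40.2 to 51.3 against 0.868 to 5.53 CPM.

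Many transcription factors of development, a well-known group of PRC2 targets, rose in EEDcKO mTEChi. Of 86 tested homeobox factors outside the Hox clusters, 38 rose and 1 fell, with a median log2 fold change of 1.01 against -0.00125 over all tested genes, and with the GC offset 23 rose, 1 fell and the median was 0.83. They spanned several families, with Pax2, Six2 and Six3, Nkx2-3, Dlx5, Irx1 to Irx5, Msx1, Barx1, Lmx1b and Tlx1 among those that rose. Otx1, a factor of the forebrain, was at 0.558, 1.15, 0.273, 0.262 and 0.232 CPM in Ctrl, at or under 3 reads in each library, and at 4.92, 6.07 and 10.3 CPM in EEDcKO. The hindlimb and pituitary factor Pitx1 was at 0 to 1.12 CPM in Ctrl and at 13.5, 7.38 and 6.55 CPM in EEDcKO. With so few reads in Ctrl, the fitted fold of these genes is not given. Of 57 T-box, Gata, Sox and Fox factors, 26 rose and 2 fell (median 0.90), and with the GC offset 16 rose and 4 fell. Gata6, a factor of endoderm and heart, was at 2.73 to 3.48 CPM in Ctrl and 13.5, 8.46 and 16.8 CPM in EEDcKO, so the Ctrl libraries were tightly grouped and all EEDcKO libraries higher (log2 fold change 2.05 ± 0.32, adjusted p = 5.3e-05). Of 51 basic helix-loop-helix and zinc finger factors, 19 rose and none fell (median 0.93), and with the GC offset 16 rose and 3 fell. Besides Twist1, Ebf4 rose (0.558 to 4.01 against 10.4, 14.5 and 10.9 CPM), as did Gli1, a mediator of hedgehog signalling (0.232 to 1.64 against 4.92, 8.46 and 7.49 CPM).

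The Hox clusters, the classical Polycomb targets, were mixed in mTEChi. Of 39 Hox genes, 25 had enough reads to be tested, 4 rose (Hoxa3, Hoxa9, Hoxb6 and Hoxc4), 3 fell (Hoxc8, Hoxc10 and Hoxd4) and the median log2 fold change was 0.73 (3 higher and 2 lower with the GC offset). Hoxc4 was at 2.23, 2.29, 4.36, 2.09 and 4.65 CPM in Ctrl and at 11.1, 12.2 and 11.2 CPM in EEDcKO (1.80 ± 0.36, adjusted p = 0.00069), and Hoxb6 at 0.573 to 3.55 CPM against 8.60, 6.94 and 12.5 CPM (1.97 ± 0.48, adjusted p = 0.0033). Neither overlapped between groups. Hoxa3, a factor of the thymus anlage (0.573 to 6.02 against 3.07, 15.4 and 9.67 CPM), and Hoxa9 (1.67 to 8.02 against 17.2, 9.76 and 6.24 CPM) did overlap. Without EEDcKO replicate 2 the call of Hoxa3 was lost (log2 fold change 1.77, and 1.22 without it), and that of Hoxa9 (1.53) was lost without Ctrl replicate 1, 3 or 4 or EEDcKO replicate 1 or 2 (1.16 to 1.6). Reads had been counted without regard to strand, and Hox genes have antisense neighbours from which their reads cannot be told apart. In mTEClo 15 of the same 25 genes rose and none fell, with a median of 1.91.

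Genes of the Polycomb machinery were called in about the proportion of all tested genes (13.9%). Of 6 core PRC2 genes only Eed was called. Ezh2, the catalytic subunit, was at 93.2, 86.5, 73.7, 73.6 and 71.1 CPM in Ctrl and 47.3, 42.7 and 35.3 CPM in EEDcKO, lower in all 3 EEDcKO libraries but under the 2-fold limit (log2 fold change -0.93 ± 0.16, adjusted p = 0.00012). Its alternative Ezh1 (64.7 to 82.5 against 64.3 to 90.5 CPM) and the core subunit Suz12 (87.3 to 139 against 88.3 to 99.2 CPM) overlapped between groups. Of 8 accessory PRC2 genes, Phf1 and Epop were called higher, and neither with the GC offset. Of 20 genes of PRC1, the complex that ubiquitinates histone H2A, 3 rose without the offset and Bmi1 alone with it. Bmi1 was at 34.6, 30.9, 21.3, 17.8 and 16.7 CPM in Ctrl and at 61.4, 65.3 and 60.2 CPM in EEDcKO (1.42 ± 0.17, adjusted p = 4.1e-06), with a wide gap between the groups. None of 6 H3K27 demethylase and KMT2 methyltransferase genes was called.

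Signalling genes of development were examined next. Of 50 Wnt pathway genes 18 rose and none fell (median 1.02), with 14 higher and none lower under the GC offset. The ligand Wnt5a was at 13.4, 13.2, 13.4, 19.1 and 19.97 CPM in Ctrl and 78.6, 47.5 and 89.5 CPM in EEDcKO (2.14 ± 0.21, adjusted p = 4.1e-07), and Wnt11 at 4.98 to 11.2 CPM against 23.3, 41.7 and 38.1 CPM (2.13 ± 0.28, adjusted p = 8.3e-06). The 2 ligands did not overlap between groups, and neither did Wnt6 (2.62 to 9.48 against 28.9, 29.7 and 32.4 CPM). Wnt4, Wnt7b, Wnt9a, Wnt10a and Wnt16, the secreted inhibitors Sfrp5, Frzb, Dkk2, Dkk3 and Notum, and the potentiators Rspo1 and Rspo3 were among the other members called higher, and Wnt10a lost its call with the GC offset (log2 fold change 1.99 without and 0.79 with it).

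In the Notch pathway, 10 of 19 genes rose and none fell (median 1.16), and 5 rose with the GC offset (median 0.54). The receptor gene Notch1 was at 181, 171, 164, 154 and 225 CPM in Ctrl and at 494, 539 and 550 CPM in EEDcKO (1.56 ± 0.13, adjusted p = 7.5e-08), with all 3 EEDcKO libraries far above the highest Ctrl library. The target Heyl was at 15.5 to 40.2 CPM against 98.3, 90.9 and 114 CPM (1.80 ± 0.28), and the ligand Dll3 at 2.23 to 8.59 CPM against 11.7, 19.3 and 20.9 CPM (1.97 ± 0.40). Both, and Notch1, were also called with the GC offset. Notch3 (19.5 to 40.9 against 88.5, 84.2 and 103 CPM) was not (1.67 without and 0.95 with it).

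Of 53 genes of the hedgehog, BMP, TGF-beta and FGF pathways, 12 rose and 1 (Fgf13) fell, and 8 rose and none fell with the GC offset. Fgf10, a ligand that thymic epithelium is known to receive from mesenchyme, was at 7.25, 3.44, 4.91, 3.93 and 5.81 CPM in Ctrl and at 22.7, 29.5 and 36.5 CPM in EEDcKO (2.56 ± 0.29, adjusted p = 2.5e-06). All 3 EEDcKO libraries were above every Ctrl library. The receptor gene Fgfr1 went from 6.30 to 14.9 CPM in Ctrl to 33.2, 48.2 and 70.5 CPM (2.29 ± 0.26), and Id1, a target of BMP signalling, from 2.79 to 6.97 CPM to 10.4, 36.0 and 39.9 CPM (2.42 ± 0.36). Of 41 axon guidance genes 8 rose and 1 fell (4 and 1 with the GC offset). The receptor gene Epha8 rose (5.50 to 12.6 against 33.8, 34.3 and 60.2 CPM), and Sema3e, a semaphorin, fell (11.5 to 20.9 against 6.14, 1.95 and 3.74 CPM). Of 41 glutamate, GABA and glycine receptor genes, 5 rose and 7 fell (1 and 4 with the offset).

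Imprinted genes were called in 1 direction, 14 of 37 tested higher and none lower (median 0.77, and 11 with none lower with the GC offset). Meg3 and Rian, non-coding RNAs of one imprinted cluster, rose with its protein-coding gene Dlk1. Sgce was at 1.67, 0, 1.91, 6.02 and 2.79 CPM in Ctrl and 19.7, 27.6 and 19.03 CPM in EEDcKO (2.96 ± 0.35, adjusted p = 3.0e-06), and its neighbour Peg10 at 16.2, 20.1, 21.6, 23.3 and 53.2 CPM against 123, 112 and 303 CPM (2.68 ± 0.59, adjusted p = 0.0015). Neither overlapped, though in Peg10 the 1-day library was the highest of each group and the log2 fold change was 2.07 without EEDcKO replicate 3 and 2.05 with a sex term. The 2 genes lie side by side, and reads counted without strand were not assigned to one start or the other.

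Cell cycle genes moved in both directions. Cdkn2a, the CDK inhibitor locus well known as a PRC2 target, was at 6.14, 2.29, 2.73, 2.09 and 5.81 CPM in Ctrl and at 8.60, 19.1 and 14.0 CPM in EEDcKO (log2 fold change 1.92 ± 0.32, adjusted p = 0.00012), with the 6-day EEDcKO library closest to Ctrl. Cdkn2b, next to it, overlapped between groups (29.6 to 44.1 against 41.2, 43.2 and 53.7 CPM). Of 10 CDK inhibitor and D cyclin genes 3 rose, and only Cdkn2a did so with the GC offset. Of 22 p53 target genes 2 rose, and none with the offset. Of 40 cell division genes 1 rose and 4 fell (median -0.51), and with the offset Top2a alone fell. Top2a, a topoisomerase of dividing cells, was at 447, 422, 291, 322 and 270 CPM in Ctrl and at 92.2, 135 and 165 CPM in EEDcKO, all below the Ctrl libraries (-1.41 ± 0.28, adjusted p = 0.00057). Pds5b, a cohesin regulator not on the cell division list, fell in the same way, from 270 to 348 CPM to 90.3, 98.5 and 106 CPM (-1.61 ± 0.21).

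Part of the collagen genes rose in EEDcKO. Of 40 tested collagen genes 14 rose and 1 (Col10a1) fell, with a median log2 fold change of 0.70. With the GC offset 8 rose and 1 fell and the median was 0.08, so the shift of the list as a whole was not kept while its largest members were. Col1a2 was at 33.5, 26.9, 22.6, 20.7 and 31.6 CPM in Ctrl and at 230, 135 and 157 CPM in EEDcKO (2.69 ± 0.23, adjusted p = 8.2e-08), and Col6a2 at 19.5 to 36.5 CPM against 114, 167 and 208 CPM (2.47 ± 0.30, adjusted p = 4.6e-06). The groups were far apart in both. Col3a1, which fibroblasts make together with type I collagen, was not called. The summed mesenchymal markers given above, of which Col1a1 and Col1a2 are members, were higher in every EEDcKO library, and their part in the rises of collagen genes, Prrx1, Twist1 and Fgf10 was not tested.

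The largest rises in CPM were in genes already well expressed in Ctrl mTEChi. Lama5, a laminin chain of epithelial basement membranes, was at 147, 158, 159, 151 and 192 CPM in Ctrl and 538, 601 and 522 CPM in EEDcKO (1.77 ± 0.14, adjusted p = 3.9e-08). Lama5 and Notch1 were the 2 of these 8 genes also called with the GC offset. The heparan sulphate proteoglycan gene Hspg2 (158 to 245 against 349, 576 and 549 CPM), Cic, a transcriptional repressor (91.7 to 141 against 274, 368 and 360 CPM), and Spock2, an extracellular proteoglycan (149 to 187 against 389, 387 and 410 CPM), were called without the offset only. So were Itgb4, Ptprf and Fscn1, with changes of 1.07 to 1.14 on the log2 scale that went to 0.94 to 0.99 and lost their calls without EEDcKO replicate 3 (Fscn1 also without Ctrl replicate 4, at 0.99).

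**Figure D3:**
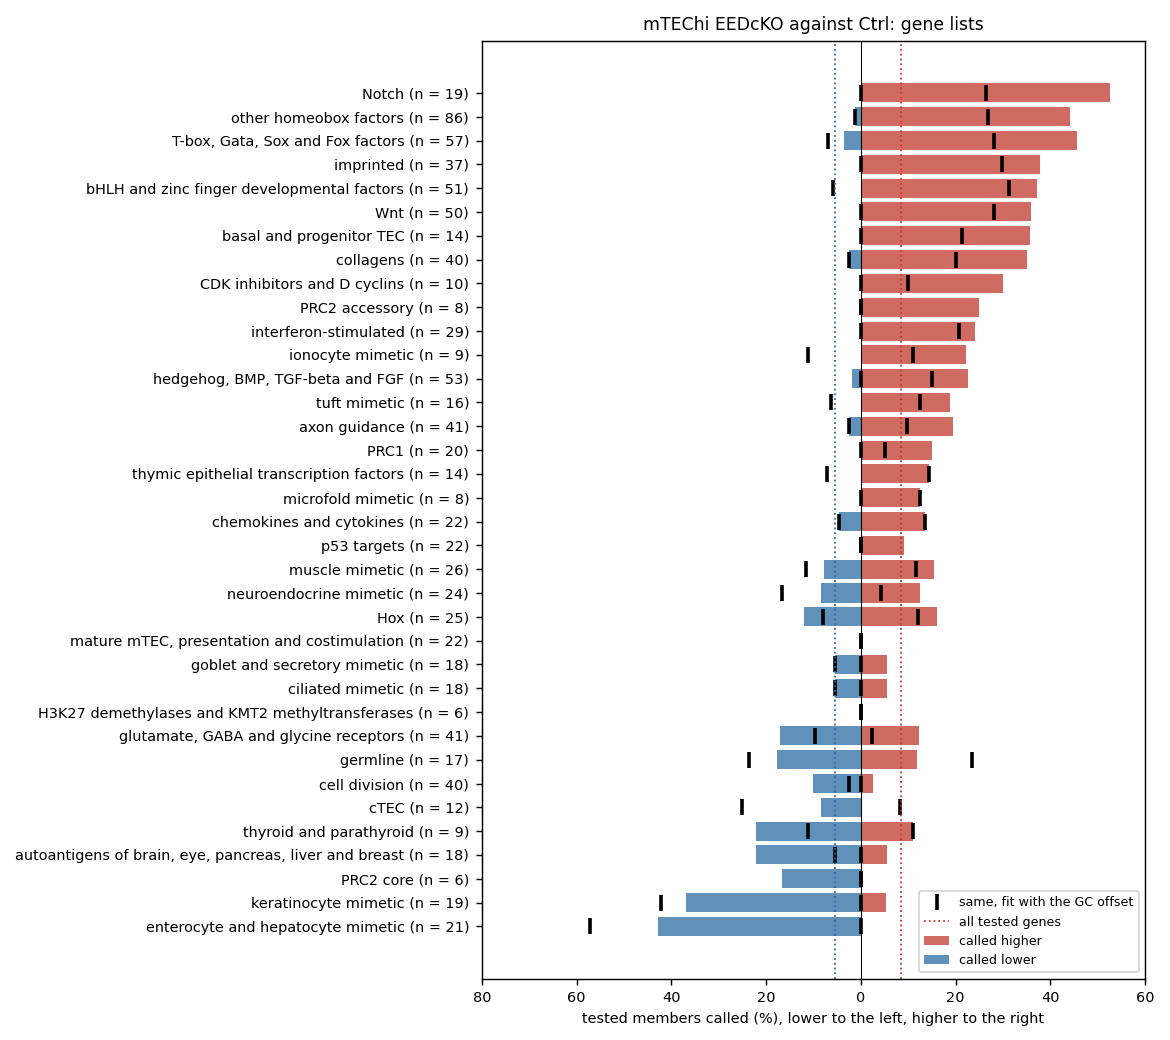
Percentage of the tested members of each gene list called higher (red, to the right) or lower (blue, to the left) in EEDcKO mTEChi, with black ticks for the same count in the GC offset fit and dotted lines for all tested genes (8.48% and 5.4%). Notch, T-box, Gata, Sox and Fox, and homeobox genes reach furthest to the right, and enterocyte and hepatocyte and keratinocyte genes furthest to the left.

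On the falling side, genes of the intestinal and hepatic epithelium had the highest share of called members among the mimetic lists. Of 21 enterocyte and hepatocyte genes 9 fell and none rose (median -1.24), and with the GC offset 12 fell and none rose (median -1.15). Adgrg7 was at 51.3, 50.4, 48.3, 45.04 and 40.2 CPM in Ctrl and at 5.53, 0.868 and 4.06 CPM in EEDcKO, low in all 3 EEDcKO libraries and lowest in the 2 to 3-day one (log2 fold change -3.97 ± 0.59, adjusted p = 3.3e-05, and -3.34 without EEDcKO replicate 2). Sis was at 59.7, 65.3, 36.3, 49.0 and 24.4 CPM in Ctrl and at 0.614, 1.73 and 9.98 CPM in EEDcKO (-3.38 ± 0.48, adjusted p = 2.3e-05, and -4.98 without EEDcKO replicate 3, in which it was highest). Neither overlapped.

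Vil1, the microvillus protein villin, was at 48.0, 44.1, 61.4, 56.8 and 49.2 CPM in Ctrl and 6.76, 7.16 and 12.8 CPM in EEDcKO (-2.52 ± 0.22, adjusted p = 8.2e-08). The groups lay far apart. Hnf4g, a nuclear receptor of the gut, was at 47.0 to 55.9 CPM against 12.3, 4.56 and 14.4 CPM (-2.33 ± 0.38, adjusted p = 0.00010). The brush border scaffold gene Anks4b, not on the list, was at 35.5 to 56.7 CPM against 3.69, 2.60 and 7.80 CPM (-3.18 ± 0.40, adjusted p = 7.0e-06, and -3.82 without EEDcKO replicate 3). Fabp2, the intestinal fatty acid binding protein, was at 9.75 to 15.1 CPM in Ctrl and at 0, 1 and 2 reads (0 to 0.624 CPM) in the EEDcKO libraries, within the 3-read floor in each. Apoc3, Mttp, Saa1, Muc13 and Cdh17 fell too. Apob, the protein core of chylomicrons, was at 177 to 325 CPM in Ctrl and at 146, 18.2 and 12.2 CPM in EEDcKO, so the 6-day library stood far from the others, and its call was lost without EEDcKO replicate 2 (log2 fold change -1.72) or replicate 3 (-1.68).

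Of 19 keratinocyte genes 7 fell and 1 rose (median -0.91, and 8 lower with none higher with the GC offset). Dsc1, a desmosomal cadherin of upper epidermis, was at 25.1, 24.6, 21.6, 8.90 and 19.5 CPM in Ctrl and at 0, 2.60 and 4.06 CPM in EEDcKO (-2.94 ± 0.57, adjusted p = 0.00049). The cornified envelope gene Rptn, not on that list, was at 206, 190, 261, 246 and 287 CPM in Ctrl and at 46.7, 14.3 and 41.5 CPM in EEDcKO (-2.87 ± 0.52, adjusted p = 0.00028). The groups were separate in both genes. Krt10, Flg, Sbsn and Dmkn fell as well. Krt1, the suprabasal keratin, fell by 1.38 on the log2 scale and Tgm3, a transglutaminase, by 1.82, and both calls were lost without EEDcKO replicate 2 (-1.12 and -1.78), that of Tgm3 also without replicate 3 (-1.76). Skint4 and Skint9, of a family of near-identical immunoglobulin-like genes of skin and thymus whose reads may be shared, fell too (log2 fold change -1.55 and -3.08).

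**Figure D4:**
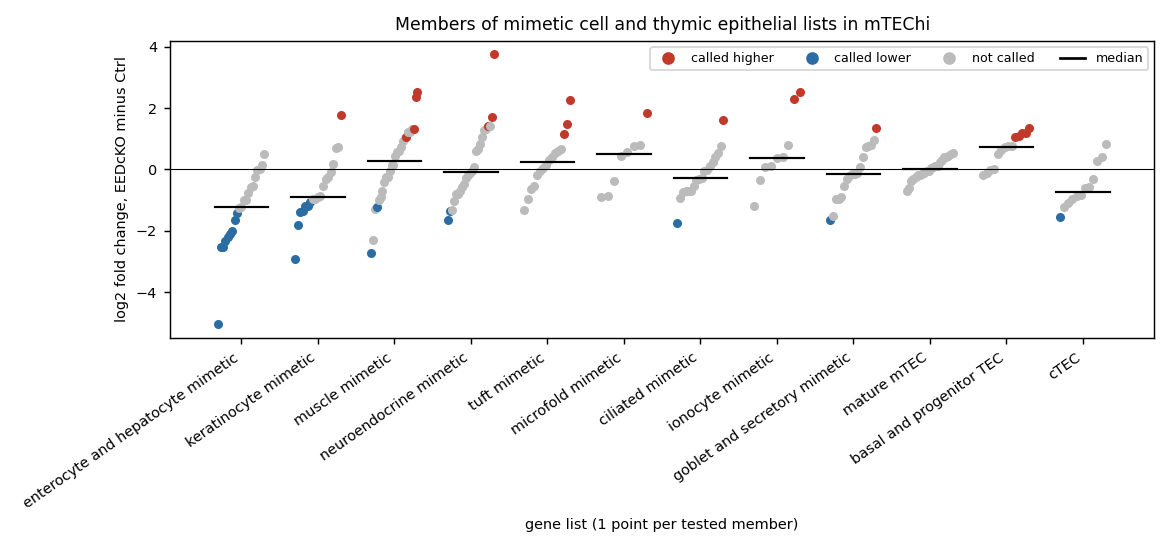
Log2 fold change (EEDcKO minus Ctrl) of each tested member of 9 mimetic cell lists and 3 thymic epithelial lists, 1 point per gene, red called higher, blue called lower, grey not called, with a black line at each median. Enterocyte and hepatocyte (median -1.24) and keratinocyte members (-0.91) lie mostly below 0, and the mature mTEC list (0.00127) lies around 0 with no called member.

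The other mimetic lists had called members in both directions or a few in one. Of 26 muscle genes 4 rose and 2 fell (3 and 3 with the GC offset). The intermediate filament gene Des was at 12.03 to 23.5 CPM in Ctrl and 72.5, 110 and 85.5 CPM in EEDcKO (2.35 ± 0.31, adjusted p = 1.1e-05), whereas the thin filament gene Neb was at 369, 421, 274, 271 and 338 CPM in Ctrl and 88.5, 39.7 and 29.9 CPM in EEDcKO (-2.73 ± 0.40, adjusted p = 2.8e-05). Myod1, a myogenic master regulator, was at 1.09 to 3.02 CPM in Ctrl and 1.84, 6.73 and 27.1 CPM in EEDcKO, and its log2 fold change of 2.53 was 1.18 and not called without EEDcKO replicate 3. Myogenin (Myog, 1.32) lost its call without EEDcKO replicate 2 (1.17). Of 16 tuft cell genes 3 rose, led by the microtubule kinase gene Dclk1 (45.3 to 82.0 against 190, 147 and 162 CPM, 1.49 ± 0.21), of 8 microfold genes only the transcription factor Sox8 rose (6.87 to 9.99 against 21.5, 39.1 and 33.7 CPM), and of 24 neuroendocrine genes 3 rose and 2 fell (1 and 4 with the GC offset). Of 18 ciliated cell genes the regulator Foxj1 rose (11.8 to 24.9 against 43.0, 59.7 and 60.2 CPM, without a call in the GC offset fit), while the axonemal gene Rsph1 fell (5.02 to 10.9 against 2.46, 1.30 and 2.50 CPM). The counts were 2 higher of 9 for ionocyte genes, 1 higher and 1 lower of 18 for goblet and secretory genes, and 1 higher and 2 lower of 9 for thyroid and parathyroid genes.

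Among known autoantigens of brain, eye, pancreas, liver and breast, 4 of 18 tested fell and 1 rose (median -0.56), and with the GC offset 1 fell. Germline genes went both ways, 2 higher and 3 lower of 17 (4 and 4 with the GC offset). Zp2, a glycoprotein of the egg coat, was at 61.9, 60.7, 59.5, 61.3 and 75.02 CPM in Ctrl and at 19.04, 2.60 and 9.67 CPM in EEDcKO (-2.83 ± 0.43, adjusted p = 4.1e-05), and the log2 fold change was -2.24 without EEDcKO replicate 2 and -3.45 without replicate 1. Rec8, a meiotic cohesin gene, rose from 2.79 to 9.002 CPM to 17.8, 18.2 and 18.7 CPM.

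Among the 15 largest falls were genes known from blood or myeloid cells. Mmp12, the macrophage elastase, was at 14.0, 9.17, 16.1, 14.4 and 13.9 CPM in Ctrl and 0.614, 1.52 and 0.936 CPM in EEDcKO (-3.55 ± 0.64, adjusted p = 0.00024), and Chil4, a chitinase-like gene with close copies, at 37.2 to 62.5 CPM against 1.84, 1.95 and 10.6 CPM. The groups did not overlap. Summed myeloid markers stood at 339 to 399 CPM in Ctrl and 246 to 406 CPM in EEDcKO, and of 12 tested none rose and 4 fell (Csf1r, Itgam, Adgre1 and Xcr1), with Adgre1 at 26.4 to 63.3 against 10.4, 11.7 and 3.43 CPM and Lyz2 at 165 to 192 against 269, 137 and 240 CPM. Their part in the falls was not tested. Car1, a carbonic anhydrase abundant in red cells, was at 8.64 to 11.7 CPM against 3.69, 0.434 and 0.624 CPM. The summed erythroid markers were 17.5 to 28.8 against 22.8 to 25.2 CPM, with Alas2 at 11.5 to 20.7 against 9.21 to 10.6 CPM and Hba-a1 at 0 to 1.39 against 1.08 to 3.43 CPM.

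Genes of mature medullary cells did not pass the test. None of 22 genes of mature mTECs, antigen presentation and costimulation was called, with a median log2 fold change of 0.00127 (-0.20 with the GC offset). Aire was at 750, 801, 505, 460 and 551 CPM in Ctrl and at 1063, 599 and 781 CPM in EEDcKO, overlapping groups with the 6-day libraries highest in both (log2 fold change 0.41 ± 0.38, adjusted p = 0.44, and -0.37 with the GC offset). Fezf2, a second regulator of tissue antigens, was at 140 to 241 CPM against 215 to 288 CPM (0.42 ± 0.30, adjusted p = 0.30, and -0.04 with the offset), and the class II gene H2-Aa at 446 to 805 CPM against 372 to 713 CPM. The costimulatory ligand gene Cd80 was at 158 to 186 CPM in Ctrl and 152, 80.5 and 116 CPM in EEDcKO, separate but not called (-0.60 ± 0.33, adjusted p = 0.16). Foxn1, the master regulator of thymic epithelium, was at 146 to 171 CPM against 192, 204 and 241 CPM (0.40 ± 0.19, adjusted p = 0.11, and -0.05 with the offset).

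Of 14 genes of basal and progenitor thymic epithelium, 5 rose and none fell (median 0.74), 3 of them with the GC offset (Ly6d, Pdpn and Sox9). Pdpn, a membrane mucin of junctional medullary cells, was at 22.3, 18.3, 28.1, 29.3 and 21.1 CPM in Ctrl and at 51.6, 54.9 and 59.0 CPM in EEDcKO (1.19 ± 0.15, adjusted p = 7.9e-06). Krt14, the basal keratin, was at 116 to 142 CPM against 335, 226 and 334 CPM (1.2 ± 0.21, and 0.75 and not called with the offset). The groups were separate in both, and Sox9 (log2 fold change 1.11) lost its call without EEDcKO replicate 3 (0.83). Of 12 cortical epithelial genes Ccl25 fell and none rose (median -0.73), and with the GC offset 3 fell and 1 rose. Ccl25, the chemokine that draws progenitors to the thymus, was at 237, 212, 214, 217 and 194 CPM in Ctrl and at 73.7, 67.7 and 79.9 CPM in EEDcKO, narrow and widely separated groups (-1.54 ± 0.36, adjusted p = 0.0021). The chemokine Cx3cl1 rose (33.8 to 61.7 against 116, 130 and 180 CPM, 1.6 ± 0.25). Of 29 interferon-stimulated genes 7 rose and none fell (6 and none with the offset), with Irf7, a regulator of interferon genes, at 41.8 to 77.3 CPM against 147, 114 and 171 CPM (1.28 ± 0.21, and 0.88 and not called with the offset).

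The genes that change as medullary cells mature were compared next. The lists came from libraries of adult mice in the same series, which share none with the present comparison: wild type of 4 to 5 weeks and both sexes, and AireKO of 5 to 6 weeks, all male. Over all tested genes 8.48% rose and 5.4% fell with EED loss in neonatal mTEChi. Of 4331 tested genes that were higher in adult mTEChi than in adult mTEClo, 278 (6.42%) rose and 682 (15.7%) fell (median -0.29). Of 2134 genes lower in adult mTEChi, 517 (24.2%) rose and 31 (1.45%) fell (median 0.55). The GC offset kept this split, with 141 higher and 555 lower in the first list and 364 higher and 23 lower in the second. Genes lower in adult AireKO than in adult wild-type mTEChi, at the same limits of adjusted p and fold, form the Aire-induced list. Such a list does not separate targets of AIRE from genes that changed with the make-up of the cells. It was divided, with 419 of 3337 higher (12.6%, against 8.48% of all tested genes) and 377 lower (11.3%, against 5.4%). The median was -0.0186, and with the GC offset 339 were higher and 311 lower. Genes higher in adult AireKO mTEChi, the Aire-repressed list, were divided as well, with 80 higher and 104 lower of 866, and with the GC offset 28 higher and 88 lower. When the adult lists were drawn from male libraries only, the balance of the Aire-repressed list turned, with 105 higher and 99 lower of 898 (median 0.04 against -0.05), and the Aire-induced list had 365 higher and 368 lower of 3139.

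The same loss in mTEClo gave 3177 called genes (15.7%), 1921 higher (9.51%) and 1256 lower (6.22%), and in AireEEDdKO against AireKO mTEChi it gave 1913 (9.47%), 1352 higher (6.69%) and 561 lower (2.78%). The 3 comparisons share no libraries with each other. Of the 1712 genes higher in mTEChi, 894 (52.2%, and 46.5% of those higher in mTEClo) were also higher in mTEClo and 7 were lower there, and 596 (34.8%, and 44.1% of those higher in the double mutant) were also higher in AireEEDdKO, where 0 were lower. Of the 1090 lower genes, 470 (43.1%, and 37.4% of the mTEClo ones) were lower in mTEClo and 12 were higher there, and 224 (20.6%, and 39.9%) were lower in AireEEDdKO and 6 higher. The highest and lowest deciles by GC content also stood apart between the genotypes in those libraries, by -0.478 to -0.362 in mTEClo Ctrl against 0.180 to 0.781 in mTEClo EEDcKO, and by -0.916 to -0.517 in AireKO against -0.255 to 0.152 in AireEEDdKO.

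Among the 15 largest rises, 11 were also called higher in mTEClo and 9 in AireEEDdKO, and among the 15 largest falls 13 were called lower in mTEClo and 6 in AireEEDdKO. The log2 fold change of Zfhx4 was 4.95 in mTEClo and 4.76 in AireEEDdKO, that of Meg3 3.24 and 5.04, and that of Adgrg7 -3.64 and -4.75. Klk1b16, a kallikrein gene with near-identical copies, fell in both subsets with Aire, and was at means of 6.43 CPM in AireKO and 5.86 CPM in AireEEDdKO (log2 fold change -0.03, not called). Mmp12 and Car1 also fell in both, but their means in AireKO were 0.413 and 0 CPM, under the 3-read floor, so a fall could not be seen there. Of 40 cell division genes 4 were lower in mTEChi, 9 in mTEClo and 33 in AireEEDdKO, and of 22 mature mTEC genes 0, 5 and 1 were lower. Whether these counts differ was not tested. The Aire-induced list, with 3337 tested members, had 419 higher and 377 lower in mTEChi and 586 higher and 108 lower in AireEEDdKO. Over all tested genes the shares were 8.48% higher and 5.4% lower in mTEChi, and 6.69% and 2.78% in AireEEDdKO. The list holds genes that are lower without Aire in adults. Low levels in AireKO can therefore leave its members little room to fall, and the counts do not compare the 2 effects.

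**Figure D5:**
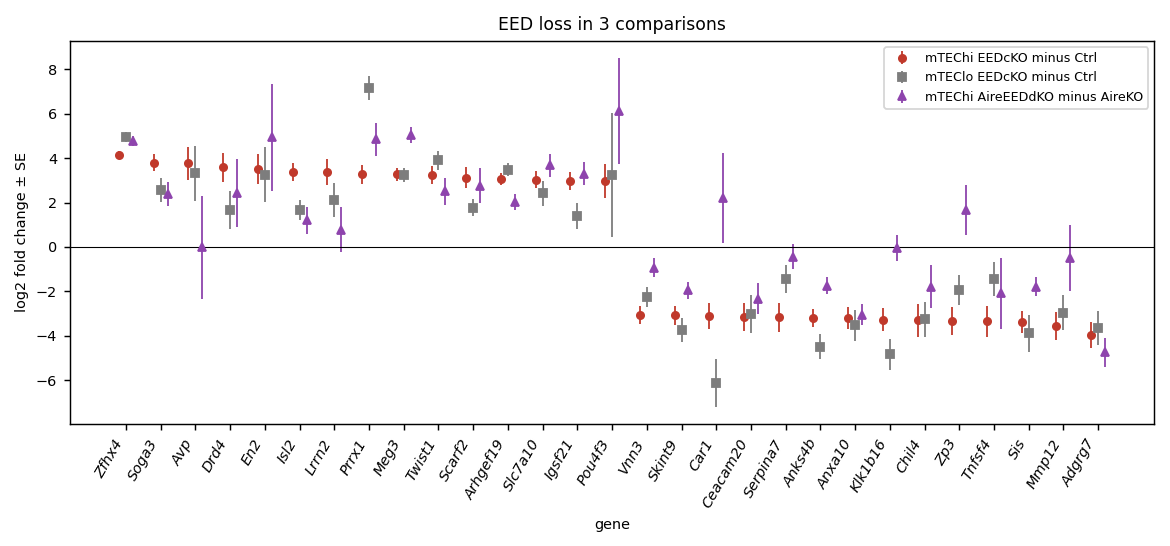
Log2 fold change with its SE of the 15 genes with the largest rises and 14 of the 15 with the largest falls in mTEChi (red circles), with the same genes in mTEClo (grey squares) and in AireEEDdKO against AireKO (purple triangles). In mTEClo all 29 lie on the same side of 0, and in AireEEDdKO 14 of the 15 rises and 12 of the 14 falls do.

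Whether the effect of EED loss differed between the subsets was tested as the difference between the 2 effects, and 320 of the tested genes (1.58%) passed. Prrx1 rose less in mTEChi than in mTEClo, where its log2 fold change was 7.14 (difference -3.87, adjusted p = 0.011), and so did Gata6, which rose by 4.69 in mTEClo (difference -2.65, adjusted p = 0.030). In mTEClo the means of Prrx1 were 1.1 CPM in Ctrl and 172 CPM in EEDcKO, and those of Gata6 0.53 and 14.5 CPM. Their means in mTEChi EEDcKO were 28.9 and 12.9 CPM. In the mTEClo Ctrl libraries 3 reads correspond to 1.0 to 1.67 CPM. The sizes of both differences therefore rest on Ctrl levels around or under that floor. Vil1 fell further in mTEChi than in mTEClo, where its log2 fold change was -1.23 (difference -1.29, adjusted p = 0.031). Spock2 rose in mTEChi while its log2 fold change in mTEClo was -0.49, not called (difference 1.67, adjusted p = 0.0037). Foxn1 was called in neither subset, at 0.40 in mTEChi and -0.77 in mTEClo, and the difference of 1.17 passed the test (adjusted p = 0.024). With the GC offset Foxn1 was at -0.05 in mTEChi and was called lower in mTEClo (-1.16, adjusted p = 0.00014).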

How the data were processed

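The authors trimmed reads with fastp 0.20.0, aligned them to mm10 with STAR 2.7.3a, dropped low mapping qualities with SAMtools 1.9, removed duplicates with Picard 2.21.1 and counted reads per gene with HTSeq 0.11.2 without strand. The annotation release they used is not given in the sources used here. The deposited raw counts per gene were analysed, and the normalized tables were not used. Counts of the 24 neonatal libraries were filtered (filterByExpr), scaled (TMM) and fitted with 1 coefficient per group by edgeR 4.0.16 in R 4.3.3. The groups were mTEChi of Ctrl, EEDcKO, AireKO and AireEEDdKO, and mTEClo of Ctrl, EEDcKO and AireEEDdKO. The mTEClo AireEEDdKO libraries entered the fit but no comparison. A gene was called at a Benjamini-Hochberg adjusted p under 0.05 and at least 2-fold. Of 55471 genes, 44971 had a count and 20196 were tested. The common dispersion of 0.0392 is a variation between replicates of 19.8%. The SE of a log2 fold change was its size over the square root of F. The comparison of mTEChi EEDcKO with Ctrl was tested on simulated data in the main fit, the GC offset fit and the alternative fit with DESeq2. The other comparisons and fits were not.

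Genes were named by a fixed rule: the targeted and thymic regulators, the 15 largest rises and falls by fold and the 8 largest by CPM among eligible genes, and up to 4 called members of each list. Eligible genes were called, protein coding or long noncoding, had a symbol that is no placeholder, did not overlap between groups, moved the same way at all 3 ages, and averaged 10 CPM or more where higher and above 3 reads where lower (which leaves out genes such as Fabp2). Others named in the text were chosen after their values were seen. The members, gene lists, rule and comparisons were chosen with earlier results of these data known. Transcript GC content came from GENCODE M21 and was found for 20175 of the tested genes. The GC offset, a smooth trend on GC content removed from each library, was added after the data were seen. Promoter windows came from RefSeq. Adult lists came from separate edgeR fits. No library pair agreed within sampling noise, so none was merged. The lowest chi-square per degree of freedom was 1.243, for Ctrl replicates 1 and 2, against 2.339 to 8.403 for the other pairs within a genotype. Whether Ctrl replicates 1 and 2 came from separate animals is not stated. The Ctrl group may therefore hold less independent replication than its number of libraries. Alternatives were RLE factors, library size alone, no filter, a stricter filter, DESeq2 1.42.0, age, sex and replicate terms, the compared groups alone and leaving out each library. A comparison of promoter CG content over all called genes was void, with windows for 66.9% of tested genes, and its alternative with another window was not run. Results for some genes are not reported here.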

Additional observations from a re-analysis of the deposited data

Results flagged for a closer look

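In 10 of the 154 genes examined, 1 of the 5 Ctrl libraries stood apart from the other 4 beyond Dixon's 95% limit (0.71 for 5 values), where chance alone gives about 1 in 20. In 7 of the 10 it was Ctrl replicate 5, the 1-day library pooled from both sexes: the laminin gene Lama5 (192.0 CPM, the highest of the group, as in the rest), the imprinted gene Peg10 (53.2 CPM), the secretoglobin gene Scgb1a1 (26.9 CPM), the secretory cell factor Spdef (9.06 CPM), the islet autoantigen gene Ptprn (9.06 CPM), the guidance gene Ntn1 (14.2 CPM) and the egg coat gene Zp2 (75 CPM). Ctrl replicate 2 stood apart in the ionocyte factor Foxi2 (0.573 CPM, the lowest) and the glycine receptor gene Glra3 (17.8 CPM, the highest), and Ctrl replicate 1 in the deiodinase gene Dio3 (0.558 CPM, the lowest). Without the library concerned, Glra3 (log2 fold change -1.6) and Dio3 (1.95) lost their calls, and the other 8 kept theirs. In each of these genes except Dio3 the 3 EEDcKO libraries lay outside the range of the 5 Ctrl libraries.

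For 5 of the genes examined the effect of EED loss differed between mTEChi and mTEClo in the test of the difference (mTEChi minus mTEClo, log2 scale): 1.17 for Foxn1, -3.87 for Prrx1, 1.67 for Spock2, -2.65 for Gata6 and -1.29 for Vil1. The sizes for Prrx1 and Gata6 rest on mTEClo Ctrl levels around or under the 3-read floor.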

How the results depend on the processing

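The 2802 calls in mTEChi became 1761 with the GC offset and 6592 without the minimum change. Of the 1712 higher genes the counts were 921 and 3852, and the 1090 lower genes became 2740 without the minimum change. Without it the mTEClo count was 6206 and that of AireEEDdKO 3400, and the difference between subsets had 566 calls without the filter. In the other alternatives with all libraries each of these counts stayed within 1.5 times. Leaving out 1 library gave 2266 to 3331 calls in mTEChi, 1432 to 2004 higher and 834 to 1327 lower, 2413 to 3304 in mTEClo, 1409 to 1784 in AireEEDdKO and 178 to 421 for the difference between subsets (178 without mTEClo Ctrl replicate 3 and 200 without replicate 1, against 320). Signs turned for Ezh1 (-0.0866 to 0.188 over the libraries left out, below 0 without EEDcKO replicate 2) and H2-Aa (-0.458 to 0.00285, above 0 without the same library), both uncalled, and with the GC offset for Suz12 (0.178), Aire (-0.372), Fezf2 (-0.0428), Foxn1 (-0.0456) and Bbc3 (-0.227, called higher without the offset), uncalled there. The cause was not tested. Of 144 named called genes, 48 lost their call with the GC offset, 21 with a sex term, 8 with the replicate block, 2 each with DESeq2 and an age term, and 104 kept it whichever mTEChi library was left out (29 lost it without EEDcKO replicate 3, 19 without replicate 2). Eed lost its call with an age term (log2 fold change -0.96), a sex term (-0.92), no filter (-0.998) and the GC offset (-0.725). Replicate numbers did not pair the libraries: deviations of same-numbered ones correlated at 0.148, -0.15 and 0.017, and those of the same age at 0.097 to 0.158. The replicate block gave 2811 calls, 1792 of them higher. Depth limits genes under about 1 CPM, and under 1.67 to 1.84 CPM in the 6-day mTEChi libraries. Genotypes were unevenly spread over age and sex.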
